A study of Mus musculus with 7 samples.

Results

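The genes described here encode the proteins of the cytosolic ribosome, measured one by one in hearts of mouse embryos. Members were the array targets whose NCBI gene symbol begins with Rpl or Rps and a digit, or is Rplp0, Rplp1, Rplp2, Rpsa or Fau, leaving out the Rps6k kinases and pseudogenes. The rule found 74 genes on 83 targets, among 7413 genes that could be named on the array: 42 of the large subunit and 32 of the small subunit. No measured value entered the rule. The arrays compared 4 Myc-null hearts with 3 wild-type hearts, all labelled as embryonic stage E13.5, each hybridised to its own Illumina MouseRef-8 array. Another label gives a wider window of stages, and a free-text label speaks of embryos before their genome is active, which goes against the other labels and was not used. How, when and in which cells Myc was deleted, the strain, and whether the hearts of a group came from separate litters or were pooled are not given in the labels. The p-values below therefore measure the spread between these 7 samples, which may be partly technical. The protocol names cardiac myocyte RNA but describes whole dissected hearts, so that fewer cells of a type and less RNA per cell cannot be told apart.

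The cytosolic ribosome joins a small subunit, which reads the mRNA, to a large subunit, which forms the peptide bond, and each cell needs their proteins in balanced amounts. Mammalian ribosomal protein mRNAs usually begin with a C followed by a run of pyrimidines, the 5′ terminal oligopyrimidine (TOP) motif, through which the kinase complex mTORC1 and the protein LARP1 control their translation. Myc is a transcription factor that binds the E-box, drives growth and is known for raising ribosome production in many cell types. A shortage of single ribosomal proteins is known to activate p53 through the 5S particle, which holds Rpl5 and Rpl11.

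Signals are the authors' rank-invariant normalized intensities, in array units. A target was called detected on an array at a detection score of at least 0.99, and the arrays detected between 8573 and 9678 of 24048 targets. The target for Myc was detected on 0 arrays, with signals of -22.9 ± 2.91 in Myc-null (SD, n = 4) and -18.0 ± 14.4 in wild-type hearts (SD, n = 3), so the genotype labels have no check here. Myc-null array 2 and wild-type array 3 stood apart: the SD over all units of the log2 deviation from each unit's median was 0.41 and 0.62 on them, and 0.19 to 0.29 on the other 5. Values without them are also given below for many of the named genes. All arrays lay on 1 BeadChip with the genotypes in separate blocks of positions, so position and genotype cannot be told apart. Of the cardiomyocyte markers listed, 6 of 18 had a named target and 5 were tested. Their summed signal ran from 60062 to 90759 in Myc-null and from 58285 to 76957 in wild-type hearts, and Ryr2 of that list was not detected on any array.

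Promoter windows show the sequence features that are known for this family, and how far they are shared by members that differ in their signals. The RefSeq tables (GRCm38.p6) held windows from 250 bases before to 50 bases after the annotated start for 57 of the 74 genes. A C at the start followed by at least 4 pyrimidines was found in 13 of these 57 genes (22.8%). The share was 3.01% of all 27025 genes with a window and 3.65% of named array genes detected on at least 3 arrays. A run that began even a base away from the annotated start was not counted, so these shares depend on how exactly starts are annotated. The lines below run from 20 bases before to 25 bases after the position of the start, with the pyrimidine run in capitals. They are shown because they include Rps6, Rps15a, Rpl35a and Rps27, whose log2 differences lay between 0.24 and 0.56, and Fau and Rpl15, which lay near 0.
Rps6, chr4:86857343-86857387, minus strand: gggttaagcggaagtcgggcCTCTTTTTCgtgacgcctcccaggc
Rps15a, chr7:118116123-118116167, minus strand: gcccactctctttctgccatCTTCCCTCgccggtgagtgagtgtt
Rpl35a, chr16:33056462-33056506, plus strand: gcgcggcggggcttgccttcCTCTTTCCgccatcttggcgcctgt
Rps27, chr3:90213624-90213668, minus strand: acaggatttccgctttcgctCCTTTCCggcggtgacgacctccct
Fau, chr19:6057927-6057971, plus strand: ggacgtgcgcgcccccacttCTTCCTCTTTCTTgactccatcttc
Rpl15, chr14:18270962-18271006, minus strand: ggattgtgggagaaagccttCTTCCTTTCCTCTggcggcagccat

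The Ets core CCGGAAG, searched on both strands, is known from mammalian ribosomal protein promoters. It was present in 24 of 57 genes (42.1%), against 9.93% of all genes and 604 of the 2741 detected array genes. Rpl26 and Rps3a1, which had the 2 largest log2 differences among the members with this motif within 10 bases of their start, are shown for that reason, with the motif in capitals. No pyrimidine run began at their annotated starts.
Rpl26, chr11:68901546-68901590, plus strand: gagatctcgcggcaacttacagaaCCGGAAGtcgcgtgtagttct
Rps3a1, chr3:86142644-86142688, minus strand: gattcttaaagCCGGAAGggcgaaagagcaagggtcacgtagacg

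The E-box CACGTG, which reads the same on both strands and is the site bound by Myc with its partner Max, was found in 5 of 57 genes (8.77%), against 8.09% of all genes and 11.9% of the detected array genes. These genes were Rpl13a, Rpl19, Rpl23, Rpl34 and Rps19. The sites of the 4 that could be tested follow, with the E-box in capitals.
Rpl23, chr11:97782423-97782456, minus strand: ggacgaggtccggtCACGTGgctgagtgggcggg
Rpl19, chr11:98026677-98026710, plus strand: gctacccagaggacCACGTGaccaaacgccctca
Rpl13a, chr7:45128926-45128959, minus strand: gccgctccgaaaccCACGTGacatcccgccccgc
Rpl34, chr3:130730534-130730567, minus strand: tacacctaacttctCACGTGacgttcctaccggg

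**Figure D1:**
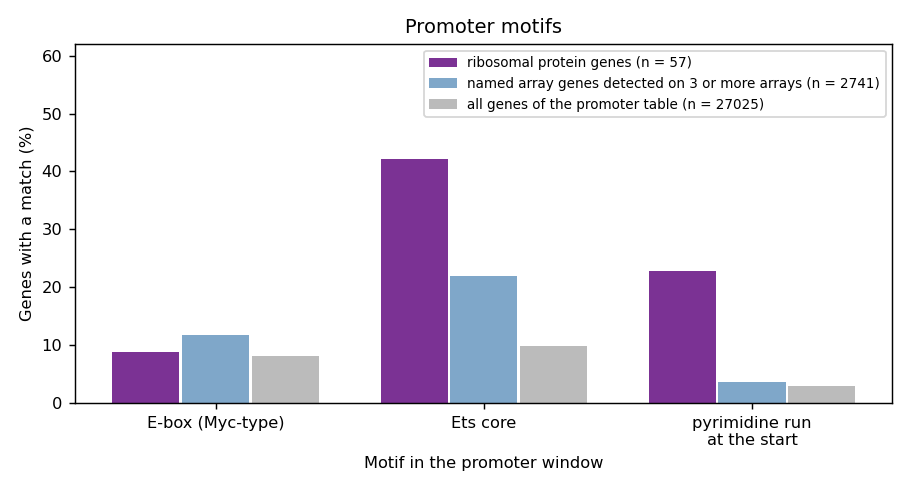
Share of genes (percent, from 0) whose promoter window held each motif, for ribosomal protein genes, detected array genes and all genes of the RefSeq table. The Ets core was in 42.1% and the pyrimidine run, counted only at the annotated start, in 22.8% of ribosomal protein genes, while the E-box was in 8.77%.

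Of the 74 genes, 68 were detected on at least 1 array and 67 on at least 3, the minimum for testing. Rpl18, Rpl4, Rplp2, Rps18, Rps19 and Rpsa were detected on 0 arrays and Rpl36al on 2. The targets of Rps18 lay between -29.8 and -10.4 on all arrays, which is a property of that target and gives no level for the gene. Rpl5, Rpl22 and Rplp1 had no target named by the lookup and were not analysed here. The genes tested were 38 of the large and 29 of the small subunit. Processed pseudogenes of this family are common in mammals, and the probe sequences were not used here, so signal from near-identical copies cannot be set apart.

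Between the genotypes no ribosomal protein gene passed the test in either direction. By limma, 0 of 67 members had a Benjamini-Hochberg adjusted p under 0.05 over 9067 units, against a background of 0% of all units, and the members' adjusted p started at 0.760. Without adjustment, 4 members had a p under 0.05 with higher Myc-null means (Rpl26, Rpl22l1, Rps3a1 and Rps6), where the background was 3.39% of all units, and 0 had one with lower means, where it was 1.96%. Both counts were made on signals raised to the floor, which narrows the lower difference of Rpl29 (given below). Without Myc-null array 2, Myc-null array 4 or wild-type array 1, 0 members had an unadjusted p under 0.05, and 311, 422 and 446 of all 9067 units did. Without Myc-null array 1, Myc-null array 3, wild-type array 2 or wild-type array 3, 9, 7, 8 and 1 members had one. The counts over all units were then 469, 450, 718 and 357. The Myc-null mean was above the wild-type mean in 54 of 67 members (80.6%), against 54.5% of all units. The log2 difference, Myc-null minus wild-type, had a median of 0.14 over the members, with quartiles of 0.05 and 0.26, against a median of 0.03 over all units. Without Myc-null array 4 the members' median was 0.06, against 0.02 over all units, and 47 members were higher. After median scaling of the arrays the members' median was 0.07, against -0.03 over all units, and 46 members were higher. Without both Myc-null array 2 and wild-type array 3 it was 0.12, against 0.02 over all units, and 55 members were higher. The 95% interval reached a median of 0.35 (log2) to either side, and for 63 of 67 members it lay within a log2 change of 1 in either direction.

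**Figure D2:**
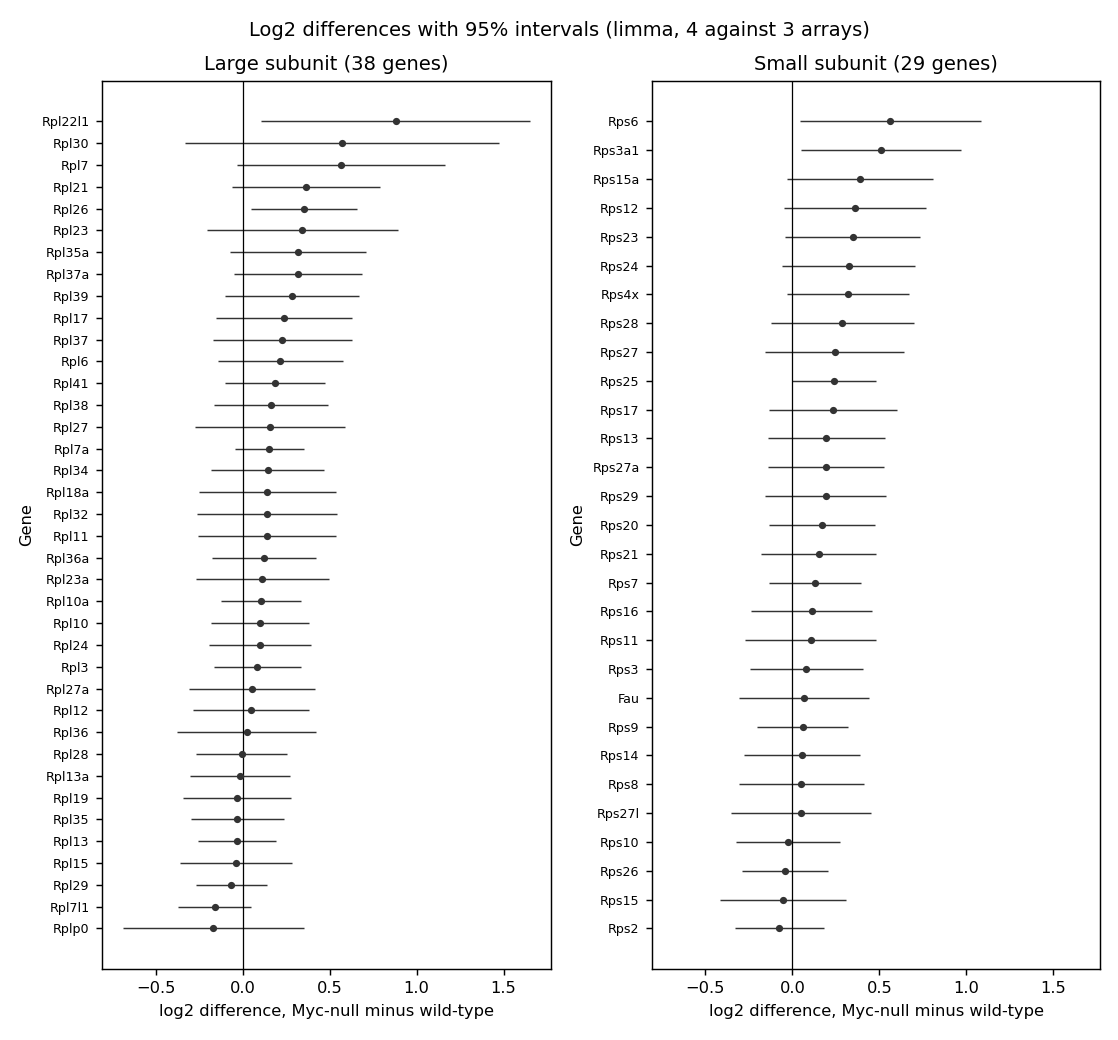
Log2 difference (Myc-null minus wild-type) of each tested member, with its 95% interval from limma, by subunit. Most points lie right of 0, and 4 of 67 intervals lie wholly above it.

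In the large subunit, 29 of 38 genes had higher Myc-null means and 9 lower, with a median log2 difference of 0.14. Rpl26, which lies at the rim of the peptide exit tunnel, had the smallest p of the family with signals raised to the floor. Its signals were 9156, 9777, 9265 and 11207 in Myc-null hearts, against 7390, 8911 and 6866 in wild-type hearts. All 4 Myc-null arrays lay above all 3 wild-type arrays, by a margin that is small beside the spread within each group. This is a log2 difference of 0.36 ± 0.13 (SE; unadjusted p = 0.0285 and adjusted p = 0.760 by limma).

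Rpl22l1, a paralogue of Rpl22 that can take its place in the ribosome, had the largest difference of the family. Its signals were 176, 371, 179 and 320 in Myc-null hearts, against 103, 152 and 155 in wild-type hearts. Myc-null arrays 2 and 4 were high, Myc-null arrays 1 and 3 stood just above the wild-type arrays, and the groups did not overlap. Its log2 difference was 0.88 ± 0.32 (SE; unadjusted p = 0.0313 and adjusted p = 0.760 by limma). Leaving out 1 array at a time gave values from 0.68 to 1.04. Its parent gene Rpl22 had no named target, so the pair could not be compared.

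Rpl30, which binds RNA kink-turns, had the same order of Myc-null arrays. Its signals were 333, 741, 372 and 688 in Myc-null hearts, against 224, 390 and 440 in wild-type hearts. Myc-null arrays 2 and 4 lay above all others, while Myc-null arrays 1 and 3 lay within the wild-type range, so the groups overlapped. On the log2 scale the difference was 0.57 ± 0.38 (SE; unadjusted p = 0.176 by limma), and it was 0.28 without wild-type array 1 and 0.38 without Myc-null array 2.

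Rpl7 is a large-subunit protein with the paralogue Rpl7l1. Its signals were 8276, 9091, 7776 and 9279 in Myc-null hearts, against 6892, 7624 and 3712 in wild-type hearts. The groups did not overlap, but wild-type array 3 alone was far below the rest. The log2 difference of 0.57 ± 0.25 (SE; unadjusted p = 0.061 by limma) was 0.24 without that array.

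Rpl23 showed the same low array. Its signals were 26942, 29003, 28517 and 36008 in Myc-null hearts, against 24676, 32028 and 16586 in wild-type hearts. The groups overlapped. The log2 difference was 0.34 ± 0.23 (SE), and it was 0.09 without wild-type array 3.

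Rpl21 and Rpl37a completed the 5 large-subunit genes with the smallest p and a higher mean. Rpl21 had signals of 6704, 8779, 6485 and 10093 in Myc-null hearts, against 5694, 6609 and 6058 in wild-type hearts, and Myc-null array 3 fell within the wild-type range. Rpl37a had signals of 10810, 13281, 10385 and 14585 in Myc-null hearts, against 9127, 11047 and 9183 in wild-type hearts, also with overlap. Their log2 differences were 0.37 and 0.32.

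On the lower side, Rpl7l1 is an Rpl7-like protein that in humans joins large-subunit precursors in the nucleolus. With signals raised to the floor, Rpl7l1 was the one member whose Myc-null arrays all lay below the wild-type arrays. Its signals were 473, 453, 466 and 427 in Myc-null hearts, against 495, 484 and 546 in wild-type hearts. The log2 difference was -0.16 ± 0.09 (SE; unadjusted p = 0.114 by limma), while its parent Rpl7 differed by 0.57 in the other direction. Rpl29 differed by -0.06, but its signals were between 31.7 and 66.4, below the floor of 58.2 on 6 arrays, and it was detected on 4. Before the floor, all its Myc-null signals (at most 41.9) lay below all its wild-type signals (at least 45.8). Its means before the floor were 36.9 ± 5.40 in Myc-null (SD, n = 4) and 54.8 ± 10.6 in wild-type hearts (SD, n = 3). Its log2 difference was -0.56 ± 0.19 (SE) with the lower of the alternative floors and -0.48 ± 0.15 (SE) with neqc, a background correction of the raw signals. In the main fit it was -0.06 ± 0.09 (SE), and Rpl29 did not pass the adjusted threshold in any of these. The rank of members by p therefore depends on the floor. Rpl13 differed by -0.03, with a range over all arrays of only 0.27 (log2).

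The stalk proteins recruit elongation factors to the large subunit. Of them Rplp0, often used as a reference gene, could be tested. Its signals were 403, 421, 396 and 382 in Myc-null hearts, against 409, 340 and 657 in wild-type hearts. The 4 Myc-null arrays were tight (401 ± 16.3, SD) and lay within the wild-type range, and wild-type array 3 was far above the rest (wild-type mean 469 ± 167, SD, n = 3). The log2 difference was -0.17 ± 0.22 (SE), and it was 0.10 without wild-type array 3, so its direction rests on that array. Rpl11, of the 5S particle, had signals of 15841, 16920, 16042 and 21544 in Myc-null hearts, against 15513, 19090 and 13406 in wild-type hearts. The groups overlapped, and its log2 difference of 0.14 was 0.02 without wild-type array 3 and 0.04 without Myc-null array 4.

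In the small subunit, 25 of 29 genes had higher Myc-null means and 4 lower, with a median log2 difference of 0.17. Rps3a1, a protein of the platform where mRNA leaves the ribosome, had signals of 5956, 7350, 6081 and 8774 in Myc-null hearts, against 5115, 5815 and 3926 in wild-type hearts. The groups did not overlap. The log2 difference was 0.51 ± 0.19 (SE; unadjusted p = 0.0353 and adjusted p = 0.760 by limma), and it was 0.35 without wild-type array 3.

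Rps6, the ribosomal substrate of the S6 kinases, had signals of 940, 1441, 913 and 1311 in Myc-null hearts, against 620, 906 and 793 in wild-type hearts. Myc-null array 3 exceeded wild-type array 2 by a few units only, and Myc-null arrays 2 and 4 were the highest, as for Rpl22l1 and Rpl30. The log2 difference was 0.56 ± 0.22 (SE; unadjusted p = 0.0373 and adjusted p = 0.760 by limma), with values from 0.41 to 0.69 when 1 array was left out.

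Rps25, known for its part in translation from viral internal entry sites, had signals of 15631, 18087, 17307 and 18020 in Myc-null hearts, against 15209, 15417 and 13311 in wild-type hearts. The groups did not overlap and the log2 difference was 0.24 ± 0.10 (SE; unadjusted p = 0.0515 by limma), and it was 0.17 without wild-type array 3. Rps15a had signals of 191, 211, 173 and 217 in Myc-null hearts, against 162, 182 and 116 in wild-type hearts. Its groups overlapped, and its log2 difference of 0.39 was 0.20 without wild-type array 3. Rps4x, encoded on the X chromosome, had signals of 12473, 14759, 12085 and 16054 in Myc-null hearts, against 10715, 12733 and 9780 in wild-type hearts. Its groups overlapped too, with a log2 difference of 0.32, which was 0.24 without wild-type array 3.

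The 3 small-subunit genes with lower Myc-null means and the smallest p were Rps2, Rps26 and Rps15, with log2 differences of -0.07, -0.04 and -0.05. Rps2 helps to form the mRNA entry and Rps26 the mRNA exit. Rps2 had signals of 11952, 12549, 12657 and 14933 in Myc-null hearts, against 13510, 14502 and 13032 in wild-type hearts. Rps26 had signals of 19188, 21150, 17844 and 18145 in Myc-null hearts, against 17994, 20023 and 20955 in wild-type hearts. In both genes the groups overlapped, and Rps15 and Rps26 differed by 0.03 and 0.00 without wild-type array 3.

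**Figure D3:**
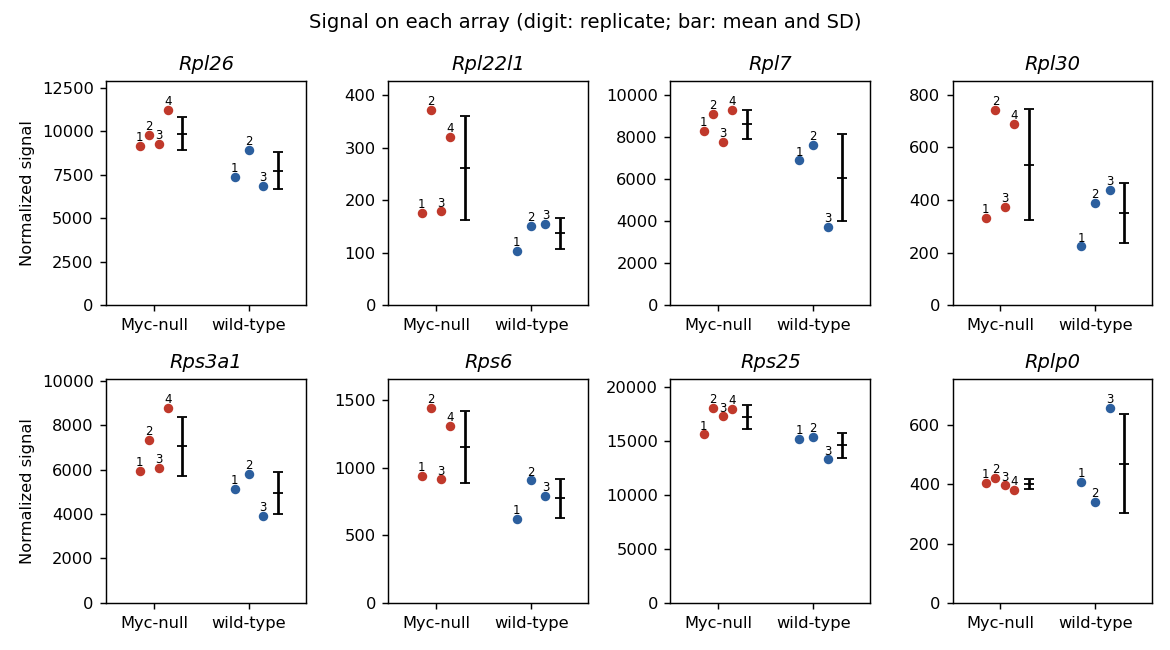
Normalized signal (linear axis from 0) of 8 members on each array, with Myc-null left and wild-type right, digits for the replicate and bars for the mean and SD. Myc-null arrays 2 and 4 are highest for Rpl22l1, Rpl30 and Rps6, and wild-type array 3 is lowest for Rpl7 and highest for Rplp0.

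Across the family, all Myc-null arrays lay above all wild-type arrays in 7 of 67 members (10.4%), against 4.07% of all units. They lay below them in 1 member (Rpl7l1), against 2.76% of all units. Both counts were made on signals raised to the floor, before which Rpl29 lay below as well. The 7 were Rpl26, Rpl22l1, Rpl7, Rps3a1, Rps6, Rps25 and Rpl7a, of which Rpl7a (log2 difference 0.15) is named after its values were seen. The authors' deposited table gives a difference score per target without naming its direction. That score was 13 or more in 11 of 67 members, against 3.52% of all units, and -13 or less in 0 members. In the authors' deposited table the highest of these were 20.2 for Rps6, 18.6 for Rpl26, 18.6 for Rpl22l1, 17.5 for Rps23 and 17.4 for Rps3a1. These scores come from the same 7 arrays and carry no adjustment over genes here.

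The 36 members outside the rule for named genes had log2 differences from -0.04 to 0.36 with a median of 0.14, of which 30 were higher and 6 lower. The smallest unadjusted p among them was 0.0734 by limma, and the groups overlapped in 35 of the 36. Over all units, all Myc-null arrays lay above all wild-type arrays in 4.07% and below them in 2.76%. The rule had already taken out the members with the smallest p, so larger p and overlap among those left follow largely from that choice. The 2 members at the top of this range of log2 differences were chosen after their values were seen. Rps12, known in Drosophila for its part in cell competition, had signals of 8338, 11396, 9750 and 13258 in Myc-null hearts, against 7558, 8992 and 8137 in wild-type hearts. Rps23, which lies at the decoding centre, had signals of 3660, 4949, 3791 and 5176 in Myc-null hearts, against 3055, 3796 and 3437 in wild-type hearts. In both, Myc-null arrays 2 and 4 were the highest and the groups overlapped, with log2 differences of 0.36 and 0.35.

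Groups of members by their place in the ribosome, drawn up after the values had been seen, are given as a description. At the rim of the peptide exit tunnel 6 of 8 genes were tested, 4 higher and 2 lower, from -0.03 to 0.36 with a median log2 difference of 0.18. The 3 genes at the mRNA entry lay from -0.07 to 0.08. The 4 tested genes at the mRNA exit and platform lay from -0.04 (Rps26) to 0.51 (Rps3a1). Of 20 genes listed for Diamond-Blackfan anaemia, a human disorder of red cell formation with mutations in ribosomal proteins, 15 were tested. Of these 11 were higher and 4 lower, with a median of 0.19. An unadjusted p under 0.05 by limma was found for 1 of them (Rpl26, higher), against 3.39% of all units in that direction. Rps19, the gene most often mutated in that disorder, was detected on 0 arrays.

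The pattern across the 7 arrays was shared by both subunits. Each member's log2 signal was set against its own median over the 7 arrays, and these deviations were averaged over members. The family mean was -0.05, 0.16, -0.04 and 0.34 on Myc-null arrays 1 to 4, against -0.14, 0.04 and -0.10 on wild-type arrays 1 to 3. The group means were 0.10 ± 0.19 in Myc-null (SD, n = 4) and -0.07 ± 0.09 in wild-type hearts (SD, n = 3), so Myc-null arrays 1 and 3 lay inside the wild-type range. Myc-null array 4 was the highest array for 54 of 67 members and Myc-null array 2 for 9. The authors' normalization also multiplied the raw signal most on Myc-null array 4 (factor 1.43), and the part of this scaling in the pattern was not tested. The lowest array was wild-type 1 for 23 members, wild-type 3 for 23 and Myc-null 3 for 14.

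**Figure D4:**
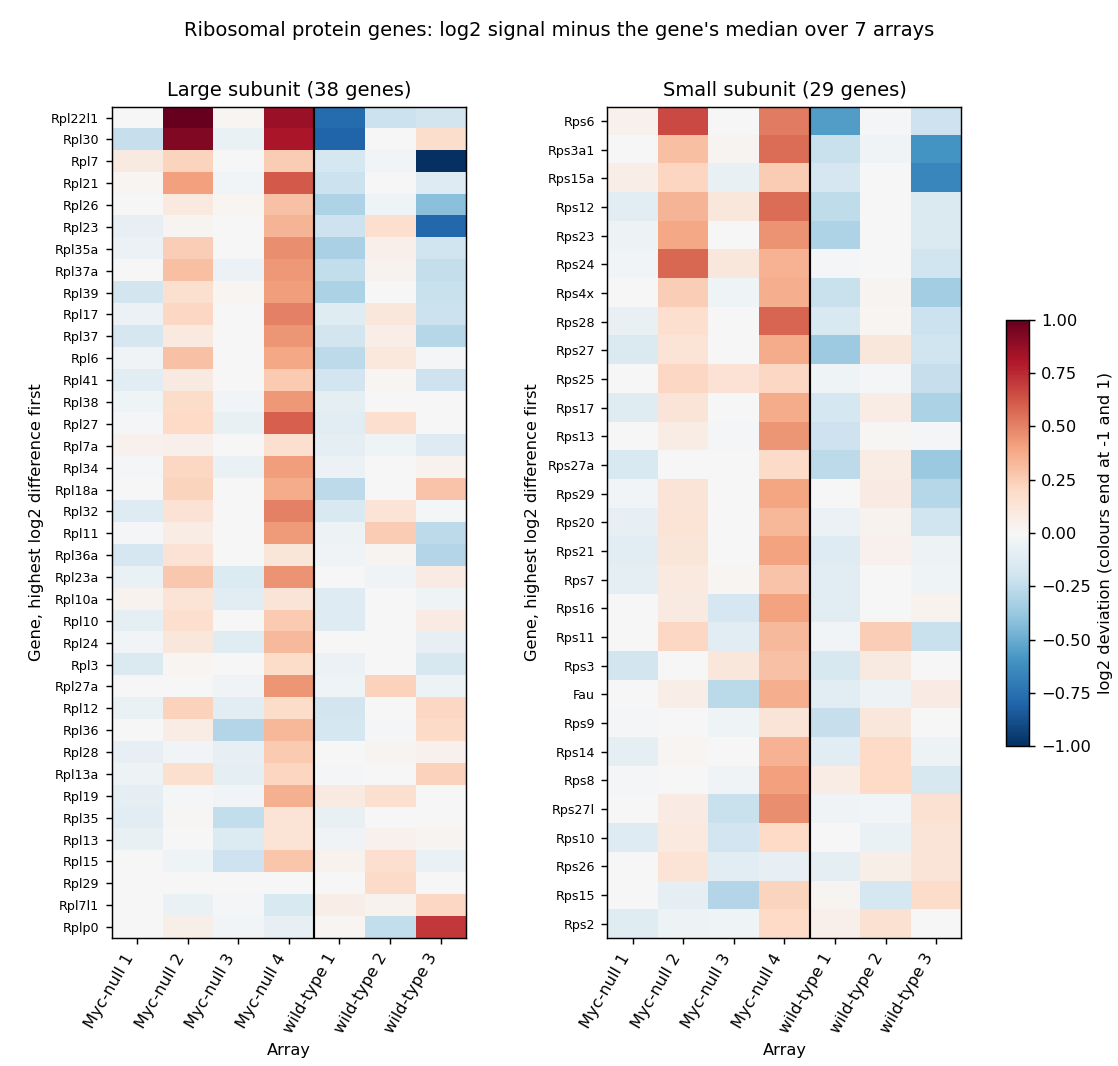
Log2 deviation of each tested member from its median over the 7 arrays (colour), large subunit left and small subunit right, genes ordered by their log2 difference. Myc-null array 4 is red in nearly every row of both subunits, and wild-type array 3 holds the deepest blue (Rpl7, Rpl23) and a dark red (Rplp0).

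The subunit means lay within 0.06 of each other on every array. The small-subunit mean minus the large-subunit mean was 0.00, -0.02, 0.01 and 0.01 on Myc-null arrays 1 to 4, against 0.01, 0.00 and -0.06 on wild-type arrays 1 to 3. The group means of this balance were 0.0024 ± 0.013 in Myc-null (SD, n = 4) and -0.016 ± 0.041 in wild-type hearts (SD, n = 3), and the groups overlapped. The median log2 difference of small-subunit genes minus that of large-subunit genes was 0.03, and it was -0.01 without wild-type array 3. The SD over members on that array was 0.29 for the large and 0.20 for the small subunit, the widest of any array for both.

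Part of this array pattern was also present in bright targets outside the family. In 223 such units, with a mean signal of at least 5000, the mean deviation was -0.07, -0.15, -0.03 and 0.24 on Myc-null arrays 1 to 4, against -0.01, 0.09 and -0.15 on wild-type arrays 1 to 3. Myc-null array 4 was the highest array for 130 of these 223 units. Their median log2 difference was -0.01, with 107 higher and 116 lower, while the 56 members with a mean signal of at least 5000 had a median of 0.14, with 47 higher and 9 lower. The family mean minus the mean of these units was 0.02, 0.31, -0.02 and 0.09 on Myc-null arrays 1 to 4, against -0.13, -0.05 and 0.05 on wild-type arrays 1 to 3. Set against bright targets in this way, Myc-null array 2 was the highest and Myc-null array 4 the next, and the groups overlapped (0.10 ± 0.15 in Myc-null and -0.05 ± 0.09 in wild-type hearts, SD). The 11 members with a mean signal under 5000 had a median log2 difference of 0.32, with 7 higher and 4 lower.

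**Figure D5:**
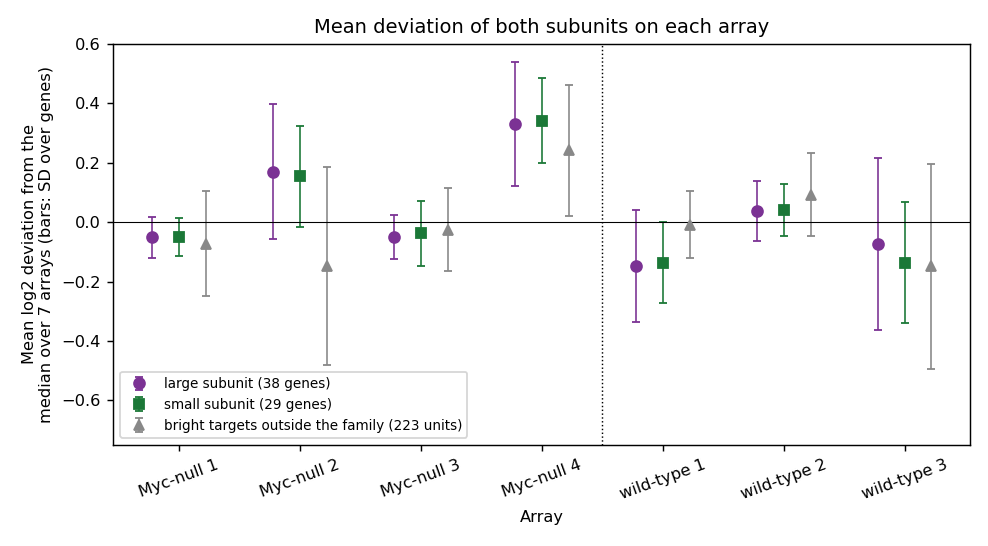
Mean log2 deviation from the median over 7 arrays (points) and SD over genes (bars) for large-subunit genes, small-subunit genes and bright targets outside the family, on each array. Both subunits move together and are highest on Myc-null array 4 (0.33 and 0.34), where bright targets outside the family are at 0.24.

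Markers of other cells and the 18S rRNA target also varied between these arrays. The 5 tested of 17 erythroid markers had a median deviation of 1.06 on Myc-null array 2, and their summed signal ran from 84731 to 122152 in Myc-null and from 77480 to 92921 in wild-type hearts. The median log2 difference of these erythroid markers was 0.37, with 5 higher and 0 lower. The 4 tested of 13 cartilage markers had a median deviation of 2.16 on the same array, with sums from 489 to 3101 in Myc-null and from 457 to 962 in wild-type hearts, and Col11a1 and Matn3 of that list were not detected on any array. The 7 tested of 13 mesenchymal and valve markers had a median deviation of 0.61 on wild-type array 3, with sums from 9314 to 16919 in Myc-null and from 14411 to 21565 in wild-type hearts, and Postn was not detected on any array. The 6 tested of 10 epicardial markers had median deviations of -0.56 and -0.42 on Myc-null arrays 3 and 4 and of 0.43 on wild-type array 3, with sums from 1378 to 2186 in Myc-null and from 1566 to 2469 in wild-type hearts. Their median log2 difference was -0.36, with 2 higher and 4 lower, and Krt19 was lower on all Myc-null arrays (-0.69; unadjusted p = 0.0278 and adjusted p = 0.760 by limma). The 4 tested of 11 endothelial markers had median deviations from -0.17 (Myc-null array 2) to 0.22 (Myc-null array 4), with sums from 3287 to 4138 in Myc-null and from 2562 to 3712 in wild-type hearts. The 3 tested of 9 leukocyte markers had a median deviation of 0.65 on Myc-null array 2, with sums from 302 to 389 in Myc-null and from 321 to 341 in wild-type hearts. Fcgr3 and Csf1r were below the floor on most arrays and read 91.5 and 108 on Myc-null array 2, and Csf1r was highest on wild-type array 3 (129). Lyz2, the brightest of them, went the other way, with 190 on Myc-null array 2 against 235 and 236 on Myc-null arrays 1 and 3. Cd68 and Ptprc of the same list were not detected on any array. The target for 18S rRNA had signals of 702, 1523, 759 and 761 in Myc-null hearts, against 902, 914 and 2682 in wild-type hearts, highest on wild-type array 3. Median log2 differences were 0.50 for the cartilage, -0.04 for the mesenchymal and valve, -0.04 for the endothelial and -0.07 for the leukocyte markers. The part of these markers and of 18S rRNA in the results was not tested. On Myc-null array 2 the members furthest above their median were Rpl22l1 (1.08), Rpl30 (0.93) and Rps6 (0.66), and on wild-type array 3 those furthest below were Rpl7 (-1.07), Rpl23 (-0.78), Rps15a (-0.65) and Rps3a1 (-0.60).

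The spread between arrays exceeded the median spread between beads. In the 66 members detected on all 7 arrays, a signal was read from 22 to 64 beads, and the deposited bead standard deviation had a median of 3.02% of the signal. The coefficient of variation over the 7 arrays had a median of 14.1%, from 6.06% to 47.3%, and was above the member's own median bead value over the arrays in 66 of 66. On a single array the bead value could be higher, as for Rps26 (up to 9.70%, against 7.27% between arrays). The bead value is a share of the raw signal, while the variation between arrays was taken on normalized signal over both genotypes. The range of a member over the 7 arrays had a median of 0.57 (log2). Rpl29 (0.19), Rps26 (0.25), Rpl10a (0.26) and Rpl13 (0.27) had the narrowest ranges, of which that of Rpl29 is narrowed by the floor. Rpl22l1 (1.85), Rpl30 (1.73), Rpl7 (1.32), Rps6 (1.22) and Rps3a1 (1.16) had the widest.

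Second targets of the same gene differed in what they detected. For Rpl17, Rpl23, Rpl37 and Rpl38 the other target was detected on 0 arrays, so their log2 differences of 0.24, 0.34, 0.23 and 0.16 each rest on 1 target. Without Myc-null array 4 Rpl17 was at 0.13, Rpl37 at 0.11 and Rpl38 at 0.07, and without wild-type array 3 Rpl23 was at 0.09. Rpl21 had a log2 difference of 0.37 by its bright target and 0.07 by the other, which lay close to the floor at 67.6 to 87.6. Rpl7l1 had -0.16 by its bright target and 0.02 by the other, also near the floor. Rps3 and Rps9, both bright by both targets, had 0.08 and 0.06 by the brighter and 0.19 and 0.16 by the other. Rpl27a had 0.06 by the brighter and 0.23 by the other, whose signals were 2130, 2183, 2259 and 2420 in Myc-null hearts, against 2276, 2113 and 1467 in wild-type hearts. Wild-type array 3 was low by that target and not by the brighter one, which read 17336 there and 17377 on wild-type array 1.

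Paralogues were set beside their parent genes. Rps27l, a paralogue of Rps27 and in humans a p53 target, had signals of 6180, 6536, 5297 and 8537 in Myc-null hearts, against 6034, 6073 and 6864 in wild-type hearts, a log2 difference of 0.05. Rps27 itself had 14738, 17966, 16333 and 21139 in Myc-null hearts, against 12680, 17652 and 14204 in wild-type hearts, a log2 difference of 0.24. Both pairs of groups overlapped. Without Myc-null array 4 Rps27l was at -0.08, and without wild-type array 1 Rps27 was at 0.14. Rpl36a differed by 0.12, and by 0.02 without wild-type array 3, and its retrocopy Rpl36al was detected on 2 arrays and not tested. Fau, which makes a ribosomal protein fused to a ubiquitin-like protein, had signals of 8207, 8605, 6792 and 10581 in Myc-null hearts, against 7631, 7934 and 8670 in wild-type hearts. The groups overlapped, and its log2 difference of 0.07 was -0.04 without Myc-null array 4.

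Members with and without each promoter motif are compared as a description only. The 11 tested members with a pyrimidine run at the start had a median log2 difference of 0.15 and the 39 without it 0.14. The 21 with an Ets core had 0.14 and the 29 without it 0.12. The 4 with an E-box ranged from -0.03 (Rpl19) to 0.34 (Rpl23), with a median of 0.06, and the 46 without it had 0.14. A match says only that the letters occur in the window. The pyrimidine run was counted only at the exact annotated start, so members without a match may still carry the motif, and this split cannot compare members with and without it.

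Other genes of the pathway gave 0 calls by limma at the adjusted threshold. At an unadjusted p under 0.05 stood 0 of the other TOP mRNAs, 1 assembly factor (Nmd3, higher) and 1 gene of the mTORC1 list (Eif4ebp2, lower). Over all units the share was 3.39% higher and 1.96% lower, and in lists this short 1 such gene is no result about the list. Of 13 tested other mRNAs with a TOP motif, 10 were higher and 3 lower, with a median log2 difference of 0.16. Eif3e, a subunit of an initiation factor, and Naca, of the nascent chain complex, had the smallest p of this list, with differences of 0.45 and 0.45. Of 10 chaperones and late assembly factors of ribosomal proteins 6 were higher and 4 lower, with a median of 0.11. Nmd3, the export adaptor of the large subunit, had signals of 229, 302, 234 and 377 in Myc-null hearts, against 208, 206 and 133 in wild-type hearts. The groups did not overlap, with a log2 difference of 0.65 (unadjusted p = 0.0332 and adjusted p = 0.760 by limma). The difference of Nmd3 was 0.43 without wild-type array 3, and 0.40 without both that array and Myc-null array 2. Ebna1bp2, a large-subunit assembly factor, differed by 0.56, and by 0.28 without wild-type array 3.

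From the list for mTORC1, S6 kinases and LARP1, 6 genes were tested, 3 higher and 3 lower, with a median of -0.09. They were Eif4ebp2, Eif4e, Eif4ebp1, Rps6kb1, Rps6ka2 and Rps6ka3, so no mTORC1 subunit and not LARP1 itself. Rptor, Tsc1, Akt1, Cnbp, Rps6kb2 and Rps6ka6 of that list were not detected on any array. Eif4ebp2, an inhibitor of cap-dependent translation, had signals of 282, 323, 515 and 494 in Myc-null hearts, against 549, 637 and 855 in wild-type hearts. All its Myc-null arrays lay below all wild-type arrays, with a log2 difference of -0.78 (unadjusted p = 0.0247 and adjusted p = 0.760 by limma). Its target protein's gene Eif4e differed by 0.70, and by 0.17 without wild-type array 3. Of the genes of the 5S particle and the p53 response 3 were tested, all known as p53 targets. Zmat3 and Cdkn1a differed by -0.23 and -0.06 and Ccng1 by 0.17. Without wild-type array 3 Zmat3 was at -0.08, and without Myc-null array 3 Cdkn1a was at -0.02. The 33 tested mitochondrial ribosomal proteins, which form a separate ribosome, had a median of 0.09, with 25 higher and 8 lower. The 32 translation initiation and elongation factors had a median of 0.11, with 21 higher and 11 lower. These medians stand beside 0.14 for the cytosolic family and 0.03 for all units, and no difference between the lists was tested.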

How the data were processed

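Each array received 100 ng of total RNA, per the labels' protocols, and the submitters' processing notes name BeadStudio 1.5.0.34, the file headers BeadStudio 1.5.1.3, with rank-invariant normalization. The authors deposited normalized signal intensity (the measurement used), raw intensity, bead standard deviations, bead numbers, a detection score as a fraction per target and a table of difference scores. Normalized and raw intensity of an array were linearly related. The factor from raw to normalized was 0.86, 0.98, 1.12 and 1.43 on Myc-null arrays 1 to 4, and 1, 1.23 and 0.81 on wild-type arrays 1 to 3.

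Target numbers with 1 or 2 leading zeros were looked up as NCBI gene identifiers, and 8884 of 9523 matched. Every gene name rests on this lookup. A further Rpl13a target, named by its RefSeq accession, was kept as a unit of its own outside the member counts. Before log2, signals were raised to at least 58.2, a floor set from the detected targets (their 5th percentile on each array, then the median of the 7 values), which understates changes of dim genes. Targets with a detection score of at least 0.99 on at least 3 arrays were tested, with the brightest target standing for a gene. The test was limma's (version 3.58.1 under R 4.3.3; lmFit, then eBayes), 2-sided with genotype as its one term and Benjamini-Hochberg adjustment over 9067 units. The steps were tested on simulated data. Precision is limited by how few arrays there are.

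The members and lists were chosen with earlier results of these data known. Genes named with values are, in each subunit, the 5 members with the smallest p and a higher and the 3 with a lower Myc-null mean, those with the 3 widest and 3 narrowest ranges, members with several targets, paralogues with their parents, Rplp0, Fau, Rpl11, Rps6, and the 2 genes with the smallest p of each pathway list. Others were chosen after their values were seen, and a gene that the rule selects is left out here. Alternatives changed the scaling, background correction, floor, filter, choice of target, arrays, array weights and replicate block.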

Additional observations from a re-analysis of the deposited data

Results flagged for a closer look

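Of 42 values examined for a Myc-null array far from the other 3, 2 stood apart by Dixon's criterion, where chance gives about 1 in 20. The log2 signal of Rpl27a was 14.57 on Myc-null array 4, while Myc-null arrays 1 to 3 read 14.09 to 14.13. The log2 signal of Zmat3, a p53 target outside the family, was 8.29 on Myc-null array 4, while Myc-null arrays 1 to 3 each read 7.92. Groups of 3 were not examined, so the wild-type arrays have no such check.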

How the results depend on the processing

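No member and no other unit passed the adjusted threshold under any of the 19 alternatives. Of 740 values of 39 named genes under the alternatives, 713 kept their sign and side of the threshold. The other 27, from 11 genes with differences from -0.17 to 0.12, changed sign or came to 0. Median scaling gave -0.010 for Fau, -0.020 for Rpl27a, -0.025 for Rps27l and -0.018 for Rps9. Rpl29 was 0 at the higher floor, -0.56 at the lower floor and -0.48 with neqc. Without Myc-null array 2 and wild-type array 3 together, Rpl36a was -0.016, Rplp0 0.079 and Rps15 0.050. Array weights gave -0.0030 for Rpl27a, -0.030 for Rpl36a, 0.030 for Rplp0 and 0.0048 for Rps26. Leaving out 1 array at a time gave ranges of -0.083 to 0.0082 for Rpl13, -0.15 to 0.031 for Rps15, -0.043 to 0.17 for Fau, -0.057 to 0.15 for Rpl27a, -0.078 to 0.15 for Rps27l, -0.00059 to 0.16 for Rps3, -0.037 to 0.13 for Rps9, -0.10 to 0 for Rpl29, -0.37 to 0.10 for Rplp0 and -0.11 to 0.0044 for Rps26. The cause of these changes was not tested.

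The titles number the samples 1 to 3 in both genotypes. The deviations of same-numbered samples had correlations of 0.17, -0.26 and -0.31, and those of differently numbered samples ran from -0.32 to 0.34. With so few arrays these values cannot tell whether the numbers mark pairs. With the replicate block, in which Myc-null array 4 has no partner, 0 units passed, 47 members were higher, and Fau was -0.043, Rpl27a -0.057, Rps27l -0.078 and Rps3 -0.00059.

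The median log2 difference of the large subunit was 0.08 after quantile normalization, 0.06 after median scaling, 0.08 with neqc and 0.08 with array weights, and that of the small subunit 0.14, 0.09, 0.14 and 0.08. The median over all units moved as well, from 0.03 in the main fit to -0.03 after quantile normalization, after median scaling and with neqc. With array weights it was 0.02. Over the arrays left out in turn the large-subunit and small-subunit medians ran from 0.05 to 0.19 and from 0.09 to 0.23, lowest without Myc-null array 4. With arrays matched on bright targets outside the family, an alternative chosen after seeing the data, they were 0.12 and 0.15. Of 485 units at an unadjusted p under 0.05, 63.3% were higher, against 43.6% after quantile normalization, 42.1% after median scaling, 52.9% with neqc and 76.5% with the arrays matched on bright targets. Without Myc-null array 2 there were 311 such units. The 4 members among them became 0 to 9 when 1 array was left out.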
